A study of Mus musculus with 6 samples.

Results

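Voltage-gated sodium channels open when the membrane of a neuron is depolarised and carry the inward current of the action potential. Each channel has one large alpha subunit, which forms the pore and its inactivation gate, and smaller beta subunits, single-span membrane proteins with an immunoglobulin-like domain that tune gating, surface density and adhesion. In brain the alpha subunits are concentrated at the axon initial segment, at nodes of Ranvier and along unmyelinated axons, so nerve terminals depend on them for the arriving spike.

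The members were chosen by name: every non-control probe whose gene name in the array files was Scn1a, Scn2a1 (now Scn2a), Scn3a, Scn8a, Scn2b, Scn3b or Scn4b. These are 7 of 34741 gene names on the array, with 16 of its 55681 non-control probes. Scn1a had 2 probes, Scn2a 3, Scn3a 5 and Scn8a 3, and the beta subunit genes Scn2b, Scn3b and Scn4b had 1 each. All 16 were kept for testing, the requirement being a signal well above background on 3 or more of the 6 arrays. The Scn3a probe at base 9000 was well above background on 5 arrays, wild-type replicate 2 being the exception, and the other 15 on all 6.

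RNA of brain synaptosomes, the nerve terminals that pinch off and reseal when brain is homogenised, was hybridised to one-colour Agilent arrays, with 3 samples of knock-in mice and 3 of wild-type mice. The title of the series concerns the FMR1 transcript and the tremor/ataxia syndrome of carriers of an expanded repeat in it, so the comparison asks which synaptosomal transcripts differ in the knock-in. The knock-in group is named by its sample descriptions and by the series design, although its genotype field reads knock-out. The labels used here give neither the inserted allele nor strain, age or sex, nor whether samples came from separate animals, so the spread behind each p-value is that of these samples and could be technical.

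The 3 knock-in arrays and wild-type replicate 3 shared slide 1, and wild-type replicates 1 and 2 shared slide 2. The 75th percentile of the processed signal was 883 to 910.0 on the knock-in arrays, against 823 for wild-type replicate 3 and 578 to 580.2 on slide 2. The RNA input label of knock-in replicate 1 reads 0.0 µg, and those of the other 5 samples read 0.2 µg. All 8 markers of neurons and nerve terminals in the fixed list were above background. Their summed level, in multiples of the 75th percentile of each array, was 659 to 763 in knock-in and 681 to 868 in wild type. Markers of glia were also present: the 8 oligodendrocyte markers summed to 219 to 300.5 in knock-in and 189.5 to 270.1 in wild type, and the 8 microglial markers to 183 to 191 in knock-in and 184 to 209.0 in wild type. The 8 astrocyte markers summed to 520 to 543 in knock-in and 550 to 621 in wild type. Since each probe binds with its own strength, these sums do not give shares of cell types. Over all 29350 kept probes, 2 (0.00681%) reached an adjusted p under 0.05 in limma, with higher signal in knock-in for both.

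Each probe is a 60-base oligonucleotide that matched an uninterrupted genomic stretch of its own length in the array annotation (mouse build mm9). Its place in the transcript is given by the transcript base at which it starts. The probes of Scn2a and Scn8a are shown, genes whose upstream and downstream probes differed in direction between groups. Those of Scn3a at bases 6735 and 9000 also did and are not printed. The first 30 bases are printed, and capitals mark alternating dinucleotide runs of at least 8 bases.
Scn2a, base 888: cagtggcccccagacaattctacctttgaa
Scn2a, base 6688: acacacggaaagggtatacttctcatttca
Scn2a, base 8614: tggccaaaatccacagatatggtaccaggt
Scn8a, base 263: acagcaagcccaagccaaacagtgacctgg
Scn8a, base 3835: ttcatcctggagatgttgctcaaatggaca
Scn8a, base 10634: gcaggtgtgcacatgtaTGTGTGTGTGTGT
Over its full length, the longest such run in the Scn8a probe at base 10634 was 16 bases, and runs of at least 16 occurred in 0.237% of all non-control probes. How far this repeat binds other transcripts was not tested.

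None of the 16 sodium channel probes passed limma's adjusted p of 0.05, the smallest adjusted p among them being 0.448. Unadjusted p-values under 0.05 were reached by 1 probe that was higher in knock-in, of Scn2a, and by 1 that was lower, of Scn8a, 2 of 16 in all. Over all kept probes 10.4% had such a p, 4.29% with a higher and 6.12% with a lower signal in knock-in. The same 2 probes were those whose groups did not overlap, against 19.9% of all kept probes (7.92% with knock-in above and 12% with knock-in below). Of the 16 differences 11 were negative and 5 positive, with a median of -0.05 on the log2 scale, and the median of all kept probes was also -0.05. The member median depended on single arrays and on the slide: it was 0.10 on slide 1 alone, where that of all probes was -0.03. It was -0.16, -0.01 and -0.0034 without knock-in replicates 1, 2 and 3, and -0.13 without wild-type replicate 3. When each gene was read by the probe with the highest mean over the 6 arrays, all 7 genes overlapped between groups.

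**Figure D1:**
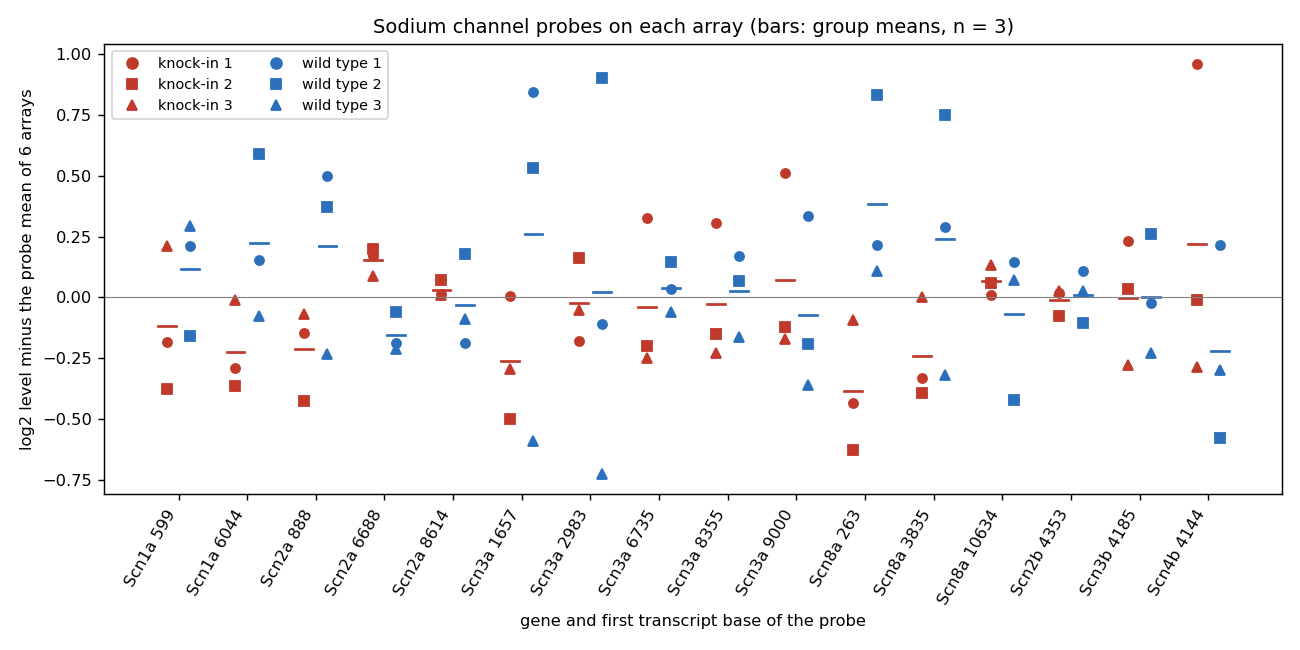
Level of each of the 16 sodium channel probes on each array, as the log2 level minus the mean of that probe over the 6 arrays. Red marks are knock-in and blue marks wild-type arrays, the shape gives the replicate, and bars are group means (n = 3). The groups are separate only for Scn2a at base 6688 (knock-in above) and Scn8a at base 263 (knock-in below).

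Levels below are log2 of the processed signal minus the 75th percentile of the array, and differences are knock-in minus wild type with limma's moderated standard error (SE). Levels of different probes cannot be set against each other, since each oligonucleotide binds with its own strength. As RNA of whole synaptosome preparations was measured, fewer terminals of a kind and less RNA per terminal cannot be told apart.

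Among the alpha subunits, Scn1a encodes a channel that is prominent in parvalbumin interneurons and whose loss causes severe childhood epilepsy in humans. Its probe at base 6044 lies on chromosome 2 at 66111022 to 66111081 (minus strand) and had processed signals of 8469.7, 8279 and 10599 in knock-in replicates 1 to 3, against 7544, 10253 and 9155 in wild-type replicates 1 to 3. After scaling these were levels of 3.26, 3.19 and 3.54 in knock-in, against 3.71, 4.14 and 3.48 in wild type. Knock-in replicate 3 lay above wild-type replicate 3, so the groups overlapped, and wild-type replicate 2 was the highest array. The means were 3.33 ± 0.19 in knock-in and 3.77 ± 0.34 in wild type (SD, n = 3 each), a difference of -0.44 (SE 0.20, limma's adjusted p = 0.489). Wild-type replicate 2 carried much of it, since the difference was -0.26 without that array. On slide 1 alone, where the knock-in arrays meet only wild-type replicate 3, it was -0.15.

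The upstream Scn1a probe, at base 599 (66173498 to 66173557), read -1.38, -1.57 and -0.98 in knock-in, against -0.98, -1.35 and -0.90 in wild type. It differed by -0.23 (SE 0.20, limma's adjusted p = 0.638), in the same direction as the downstream probe and again with overlapping groups. Its difference was -0.41 on slide 1 alone. With knock-in replicate 2 or 3 left out it was -0.10 or -0.39, and with wild-type replicate 2 or 3 left out it was -0.37 or -0.14.

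Scn2a encodes the alpha subunit that young excitatory neurons use at the axon initial segment and that unmyelinated axons keep in the adult. Its 3 probes, on the plus strand of chromosome 2, did not move alike. The array carries the probe at base 6688 (65603503 to 65603562) as 10 separate spots, which gives the spread within an array. Its mean processed signal was 10245, 10730.0 and 9971 in knock-in, against 5236, 5733 and 7322 in wild type. Over the 10 spots of an array, the SD of log2 signals was 0.045 to 0.055 in knock-in and 0.045 to 0.074 in wild type. After scaling the probe read 3.54, 3.56 and 3.45 in knock-in, against 3.18, 3.30 and 3.15 in wild type, so the lowest knock-in array exceeded the highest wild-type one. The difference was 0.30 (SE 0.10, 95% interval 0.06 to 0.55), or 1.24-fold. Its unadjusted p was 0.022 and limma's adjusted p = 0.458 over 29350 probes, and the exact two-sided permutation p was 0.1, the smallest that 3 arrays against 3 allow. On slide 1 alone the difference was 0.36, and leaving out one array at a time kept it between 0.28 and 0.35, with an unadjusted p of 0.0528 to 0.0848 without knock-in replicate 1 or 2 or wild-type replicate 1 or 3.

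The Scn2a probe further downstream, at base 8614 (65605429 to 65605488), read 4.56, 4.61 and 4.55 in knock-in, against 4.36, 4.72 and 4.45 in wild type. Wild-type replicate 2 was above every knock-in array and the other wild-type arrays below them, and the difference was 0.06 (SE 0.13, 95% interval -0.24 to 0.37). The upstream probe, at base 888 (65521868 to 65521927), read -0.69, -0.97 and -0.61 in knock-in, against -0.05, -0.17 and -0.78 in wild type. There the wild-type arrays of slide 2 were highest while wild-type replicate 3 lay among the knock-in arrays. The difference was -0.43 (SE 0.22, limma's adjusted p = 0.513), and on slide 1 alone it was 0.02.

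Scn3a, whose channel is most abundant in the embryonic brain, lies beside Scn2a on chromosome 2, on the minus strand. The probes at bases 6735 (65297940 to 65297999) and 8355 (65296320 to 65296379) both had overlapping groups. At base 6735 the levels were 1.98, 1.45 and 1.40 in knock-in, against 1.68, 1.79 and 1.59 in wild type. At base 8355 they were 1.95, 1.49 and 1.42 in knock-in, against 1.81, 1.71 and 1.48 in wild type. Knock-in replicate 1 was the highest array for both, and the differences were -0.08 (SE 0.18) and -0.05 (SE 0.18), with 95% intervals of -0.51 to 0.35 and -0.48 to 0.38.

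The other 3 Scn3a probes were dim, with processed signals between 27.9 and 74.5 in knock-in and between 23.7 and 79.2 in wild type. They were the probe at base 9000 (65295675 to 65295734), one at base 1657 of an Ensembl transcript (65332960 to 65333019) and one at base 2983 of a cDNA clone (65346334 to 65346393). Their differences were 0.14 (SE 0.26), -0.52 (SE 0.37) and -0.05 (SE 0.39), all with overlapping groups. The arrays of the cDNA clone probe spread more in wild type. It read -3.95, -3.61 and -3.82 in knock-in, against -3.88, -2.87 and -4.50 in wild type. On slide 1 alone the 3 differences were 0.43, 0.33 and 0.70.

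**Figure D2:**
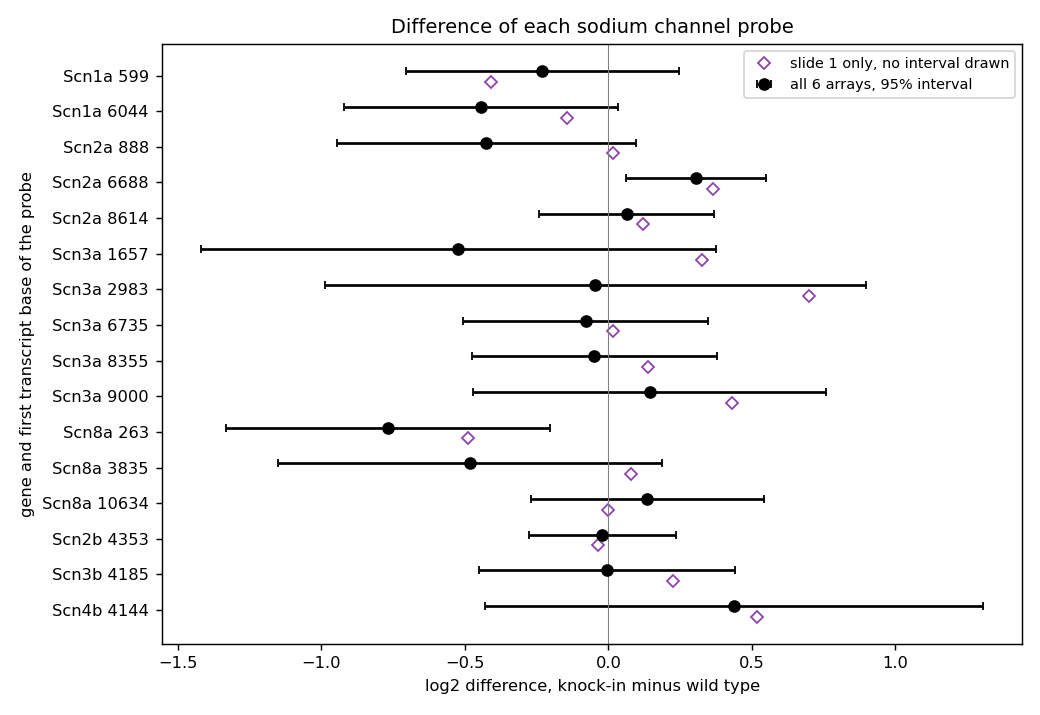
Log2 difference, knock-in minus wild type, of each sodium channel probe. Black points with bars are all 6 arrays with the 95% interval of limma's fit, and open diamonds are slide 1 alone, which holds a single wild-type array. The intervals of 2 of the 16 probes leave out 0, and 7 of the 11 negative differences are above 0 on slide 1 alone.

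Scn8a encodes the main alpha subunit of mature initial segments and nodes of Ranvier and lies on the plus strand of chromosome 15. Its most upstream probe, at base 263 (100766904 to 100766963), had processed signals of 578, 521 and 755 in knock-in, against 594, 913 and 783 in wild type. Its levels were -0.61, -0.80 and -0.27 in knock-in, against 0.04, 0.65 and -0.07 in wild type, every knock-in array lying below every wild-type array. With means of -0.56 ± 0.27 in knock-in and 0.21 ± 0.39 in wild type (SD, n = 3 each), the difference was -0.77 (SE 0.23, 95% interval -1.33 to -0.20), and knock-in read 0.587 of wild type. The unadjusted p was 0.0153, limma's adjusted p = 0.448 and the exact two-sided permutation p 0.1. Slide 1 alone gave -0.49. The difference lay between -0.91 and -0.55 when one array at a time was left out, the smallest without wild-type replicate 2, and the unadjusted p was 0.0532 without knock-in replicate 2.

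At base 3835 (100848863 to 100848922) Scn8a read -2.55, -2.61 and -2.22 in knock-in, against -1.93, -1.47 and -2.54 in wild type. The difference was -0.48 (SE 0.28, limma's adjusted p = 0.534), and on slide 1 alone it was 0.08, since wild-type replicate 3 lay among the knock-in arrays. The most downstream probe, at base 10634 (100875702 to 100875761), which carries the TG repeat shown above, read 0.64, 0.69 and 0.76 in knock-in, against 0.77, 0.21 and 0.70 in wild type. Wild-type replicate 2, the highest array at base 263, was here the lowest. The difference was 0.14 (SE 0.17) and turned to -0.04 without that array.

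The alpha subunit genes with several probes on 1 RefSeq transcript allow a comparison within each array, as the most upstream minus the most downstream probe. For Scn8a (base 263 minus base 10634) this log2 contrast was -1.25, -1.49 and -1.03 in knock-in, against -0.73, 0.45 and -0.77 in wild type. Knock-in lay below wild type without overlap, by -0.90 on average (exact two-sided permutation p = 0.1), as it did for 11.1% of 1800 transcripts, with 8.44% the other way. On slide 1 alone the Scn8a gap was -0.49. Its downstream probe carries the TG repeat, and wild-type replicate 2, the highest array at base 263, was the lowest there. The middle probe minus the same downstream probe (base 3835 minus base 10634) differed by -0.62, with overlapping groups (exact permutation p = 0.3). For Scn2a (base 888 minus base 8614) the contrast was -5.25, -5.58 and -5.17 in knock-in, against -4.40, -4.90 and -5.23 in wild type, a mean difference of -0.49 with overlapping groups (exact permutation p = 0.2), and of -0.10 on slide 1 alone. Scn1a (base 599 minus base 6044) went the other way, by 0.21 (exact permutation p = 0.8), with wild-type replicate 2 lowest at -5.50, and by -0.26 on slide 1 alone. For Scn3a (base 6735 minus the dim probe at base 9000) it was 5.87, 5.98 and 5.98 in knock-in, against 5.76, 6.39 and 6.36 in wild type. Those groups overlapped, with a mean difference of -0.22 (exact permutation p = 0.4) and of -0.41 on slide 1 alone.

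The same contrast was computed for all the 1800 RefSeq transcripts with kept probes at least 1000 bases apart. Its median on each array, relative to the mean of 6 arrays, was 0.00, -0.07 and -0.02 in knock-in, against 0.14, 0.04 and -0.07 in wild type. Relative to downstream probes, upstream probes were thus brightest in wild-type replicate 1 over the whole array, and the groups overlapped, with a median difference of -0.05 on all arrays and of 0.04 on slide 1 alone. Its part in the Scn8a and Scn2a contrasts was not tested.

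**Figure D3:**
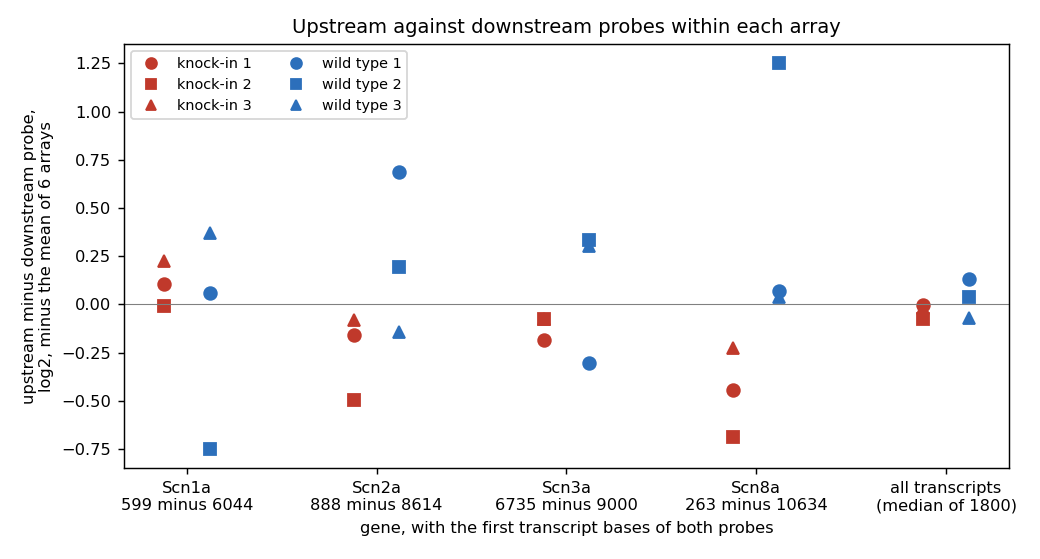
Upstream minus downstream probe within each array for Scn1a, Scn2a, Scn3a and Scn8a, and the median of the same contrast over 1800 transcripts, on the log2 scale and relative to the mean of the 6 arrays. Knock-in arrays (red) lie below all wild-type arrays (blue) for Scn8a, alone among the 4 genes, where wild-type replicate 2 stands far above the rest.

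Of the beta subunit genes, Scn2b and Scn3b gave differences near 0, while Scn4b varied widely between arrays. Scn2b encodes a subunit that is joined to the alpha subunit by a disulphide bond and helps to bring channels to the axon surface. Its probe, on chromosome 9 at 44937945 to 44938004, was the steadiest of the 16, with an SD of 0.08 over the 6 arrays. Processed signals were 46087, 44332 and 47673 in knock-in, against 32130.0, 27789.9 and 43078 in wild type, and after scaling 5.71, 5.61 and 5.71 in knock-in, against 5.80, 5.58 and 5.71 in wild type. The wide gap between slides in the unscaled signal was gone after scaling, and the difference was -0.02 (SE 0.11, 95% interval -0.28 to 0.24).

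Scn3b encodes a subunit that binds the alpha subunit without a covalent bond. Its probe, at 40098873 to 40098932 on chromosome 9, read 2.43, 2.24 and 1.92 in knock-in, against 2.18, 2.46 and 1.97 in wild type. Both groups spread over nearly the same range, and the difference was -0.01 (SE 0.19, 95% interval -0.45 to 0.44). The longest alternating dinucleotide run in this probe was 11 bases. Runs of at least 11 bases occurred in 0.553% of all non-control probes. How far this run binds other transcripts was not tested.

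Scn4b encodes a disulphide-linked beta subunit whose cytoplasmic tail can block the open channel and so gives the resurgent current of fast-spiking neurons. It is known to be enriched in the striatum. The probe, at 44962045 to 44962104, lies 24041 bases from that of Scn2b on the same strand. Processed signals were 29412, 15473 and 12814 in knock-in, against 11538, 6679 and 11478 in wild type, or levels of 5.06, 4.09 and 3.82 in knock-in, against 4.32, 3.52 and 3.80 in wild type. Knock-in replicate 1 stood above all other arrays, and the rest overlapped. The difference of 0.44 was the largest positive one among the members but had a wide error (SE 0.36, 95% interval -0.43 to 1.31, limma's adjusted p = 0.625). Leaving out 1 array moved it in both directions: with knock-in replicate 1 or 3 left out it was 0.07 or 0.69, and 0.66, 0.26 and 0.40 without wild-type replicates 1, 2 and 3.

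Striatal markers moved with Scn4b. The list of 12 genes of medium spiny neurons, all kept, had a mean centred level of 1.95, 0.57 and -0.92 in knock-in, against 1.32, -1.48 and -1.44 in wild type. Their summed level was 60.8 to 294 in knock-in and 52.8 to 204 in wild type, and none was below background on all arrays. The order of the arrays within knock-in was the same for Scn4b and for this list, and in wild type replicate 1 was the highest in both. Other fixed marker lists shared part of this pattern. Parvalbumin interneuron markers were highest on both replicates 1, at 0.23 in knock-in and 0.21 in wild type. Choroid plexus markers read 0.51, 0.65 and -0.42 in knock-in, against 0.83, -0.75 and -0.82 in wild type. Excitatory markers of cortex and hippocampus went the other way on knock-in replicate 1, at -0.40. The 12 genes were all higher in knock-in on average, with a median of 0.83, 0 of them with an unadjusted p under 0.05 and 0 without overlap. Leaving out both replicates 1, an alternative chosen after seeing the data, the Scn4b difference was 0.29. The knock-in arrays that remained still had higher striatal list means than the wild-type arrays that remained, so this step did not even out striatal signal between groups. The part of tissue composition in the Scn4b difference was not tested.

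**Figure D4:**
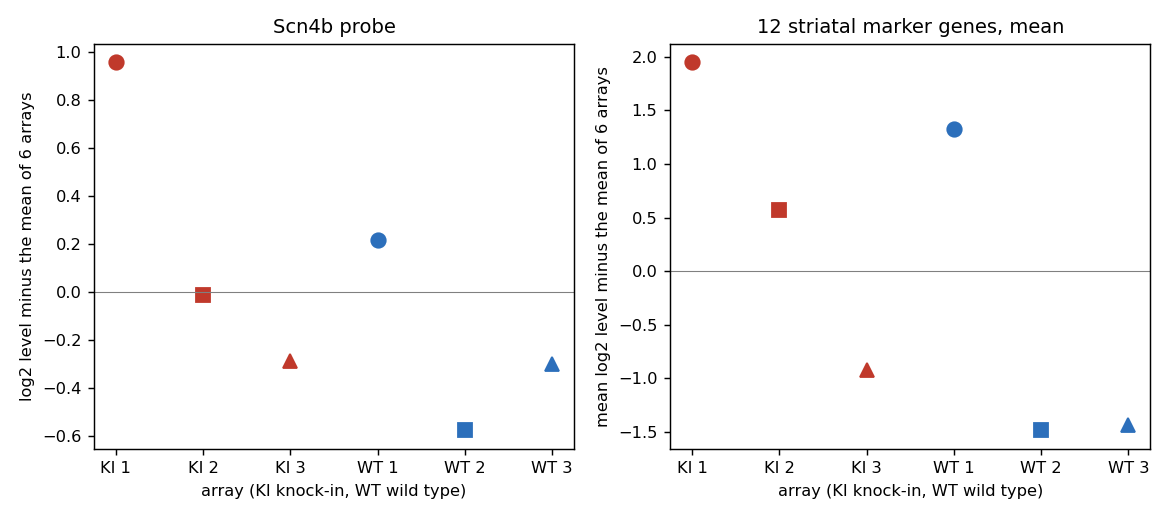
Scn4b (left) and the mean of 12 striatal marker genes (right) on each array, as log2 levels relative to the mean of the 6 arrays. Knock-in arrays are red and wild-type arrays blue, and the vertical scales differ. In both panels knock-in replicate 1 is highest and wild-type replicate 1 is the highest wild-type array.

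Scn4b and Scn1a had the largest SDs over the 6 arrays among the brightest probes, 0.54 and 0.35. The genes whose profile over the 6 arrays was most like that of Scn4b, by Pearson's r among 4004 genes with an SD of at least 0.5 times its own, were Gipc2 (0.99), Tbc1d8 (0.99), Ppp1r2 (0.99), Rasd2 (0.98) and Rgs2 (0.98). For Scn1a, among 8108 genes, they were the glial glutamate transporter Slc1a2, Strada, Nudt12, the sodium-calcium exchanger Slc8a1 and Agbl4, each with r of 0.99 or above. These values describe 6 arrays that share their preparation and scaling, and the top of so many candidates is high by selection.

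The rest of the pathway was read from fixed lists, each gene by its brightest kept probe. Over all 21003 such probes 59.2% were lower in knock-in, the median difference was -0.05, 4.15% had an unadjusted p under 0.05 with a higher signal and 5.85% with a lower one, and 20.3% had groups without overlap. No gene of the 5 lists passed limma's adjusted p of 0.05. Of 8 other channel genes 6 were kept, Scn7a and Scn9a being too dim, and 5 of the 6 were lower, with a median of -0.35.

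Scn10a and Scn11a, channels of sensory neurons, each differed by -0.50, and Nalcn, a sodium leak channel, by -0.21, with overlapping groups. Scn10a and Scn11a were dim. Scn10a read -4.21 to -3.10 in knock-in and -3.22 to -3.01 in wild type, and Scn11a was well above background on 4 of the 6 arrays. On slide 1 alone 3 of the 6 genes were lower and the median was -0.15, and with knock-in replicate 2 or 3 left out it was -0.18 or -0.20. With only probes well above background on all 6 arrays, 4 of 5 genes were lower and the median was -0.21.

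Genes whose products hold channels at the initial segment and node were lower in 11 of 16 cases, with a median of -0.08. Under other scalings the majority was smaller or gone, with 9 of 16 lower under quantile or cyclic loess normalization and 8 of 16 in the values of the authors' table, where the median was 0.0023. Members of small p included the extracellular matrix gene Tnr at -0.49 (SE 0.24), Kcna1 at -0.21 and the spectrin gene Sptbn1 at -0.17. The anchoring gene Ank3 was at 0.09 by its brightest probe, and its 3 probes lay between -0.55 and 0.25. Tnr and Kcna1 were among the 4 of 16 genes whose knock-in arrays lay below all wild-type arrays, and 0 of the 16 lay above. Over all genes 20.3% had groups without overlap in either direction, and over all kept probes 12% had knock-in below. Of the 16 genes 0 had an unadjusted p under 0.05.

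Genes of proteins that bind the channel were lower in 11 of 11 cases, with a median of -0.21. They included Fgf12, a fibroblast growth factor homologue that binds the tail of the alpha subunit, at -0.29 (SE 0.12, unadjusted p = 0.0403) by the brightest of its 3 probes, which lay between -0.29 and 0.01. It was the 1 gene of the 11 with an unadjusted p under 0.05. Knock-in lay below wild type without overlap for 4 of the 11, against 20.3% of all genes without overlap in either direction. The calmodulin gene Calm3 was at -0.24 and Map1b at -0.33. Each had 2 kept probes, between -0.24 and -0.07 for Calm3 and between -0.33 and -0.26 for Map1b. The list mean, relative to the mean of 6 arrays, was -0.10, -0.16 and -0.05 in knock-in, against 0.05, 0.28 and -0.02 in wild type, so that wild-type replicate 2 was highest and wild-type replicate 3 close to knock-in. On slide 1 alone 7 of the 11 were lower, with a median of -0.15, and without wild-type replicate 2 the median was -0.13. The count of lower genes was 9 of 11 under quantile normalization, with array weights, in the authors' table and without wild-type replicate 2. It was 10 of 11 under cyclic loess normalization, 7 of 11 with slide as a fixed block and 11 of 11 under the remaining alternatives. Cell markers moved alongside: 6 of 8 neuron markers were lower in knock-in (median -0.14), with wild-type replicate 2 highest at 0.23, and 8 of 8 oligodendrocyte markers were higher (median 0.26), with wild-type replicate 2 lowest at -0.44. Their part in the values of this list was not tested.

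Among genes that modify channels, 13 of 17 were lower, with a median of -0.09. Groups did not overlap for 3 genes with knock-in above and 4 with knock-in below, against 20.3% of all genes in either direction. The median was -0.04 without knock-in replicate 2 and -0.05 on slide 1 alone, where 11 of 17 were lower, and 10 of 17 were lower with array weights or without wild-type replicate 2. Sgk1, a kinase that raises channel density at the surface, was higher in knock-in without overlap, at 0.57 (SE 0.18, unadjusted p = 0.0165). Nedd4, a ubiquitin ligase, was at 0.21, and the kinase genes Prkca and Gsk3b at -0.30 and -0.31. Regulators of sodium channel transcripts had 6 higher and 6 lower of 12. They included the splicing regulators Ptbp2 at 0.56 (SE 0.21, unadjusted p = 0.0358), Rbfox3 at -0.32 (SE 0.13, unadjusted p = 0.0475) and Nova1, whose brightest probe gave 0.66 and whose lowest gave -0.29.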

How the data were processed

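Per the labels, Cy3-labelled total RNA of each sample went onto 1 array. Per the file headers, Agilent Feature Extraction 10.7.3.1 produced the deposited intensity values: spot mean, spot median, local background, and a processed signal corrected for background and for trends across the array, with no scaling between arrays. The authors also deposited a table in log2 units, whose ranks matched the raw median intensity of each array (Spearman 1.00) and whose column medians were 6.55 to 6.56; its normalization method is not stated.

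Processed signals were put on the log2 scale and scaled by each array's 75th percentile over 59305 non-control spots. Outlier spots were left out unless every spot of a probe was marked, and spots of a probe were averaged. Probes above background on 3 or more arrays were kept (29350 probes, 21003 genes); no non-control spot was saturated. Members were matched by the file's gene name, and other probes through a RefSeq gene table of GRCm38.p6 (27235 by accession, 3581 by symbol, 565 by older symbol); 24300 kept the file's name.

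All kept probes entered 1 limma fit (version 3.58.1, R 4.3.3; lmFit, eBayes, two-sided) with Benjamini-Hochberg adjustment, and single values were compared by exact permutation over 6 arrays. The fit was tested on simulated data. Alternatives covered background correction, normalization, filters, probe choice, variance models, slide, replicate number, the authors' table and leaving out each array. In each list up to 4 genes of smallest unadjusted p were named, and for the 2 members that varied most the 5 genes most alike; Ank3 was named after its values were seen. Some genes that this rule names are not reported here. Members and lists were chosen with earlier results of these data known. The number of arrays limits the precision.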

Additional observations from a re-analysis of the deposited data

How the results depend on the processing

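No member probe passed the adjusted threshold under any of the alternatives, including one chosen after seeing the data that left out knock-in and wild-type replicate 1, the arrays with most striatal marker signal in each group. Both Scn1a probes, Scn2a at base 6688, Scn8a at base 263 and Scn4b kept their direction under each alternative run for them. Over all probes, 2 were called higher; the count was 1 on slide 1 alone, 0 with normexp, with no filter, with probes above background on all 6 arrays, with the replicate block, with the authors' table and without both replicates 1, and 0 to 2 when one array was left out (0 without wild-type replicate 1 or 2). None was called lower (1796 at an unadjusted p under 0.05), against 1 with normexp, 8 with slide as a fixed block, 3 on slide 1 alone and 0 to 3 when one array was left out (3 without knock-in replicate 2). Of the member probes 1 was higher at an unadjusted p under 0.05, against 2 on slide 1 alone, 0 with the brightest probe per gene, with slide as a fixed block and without both replicates 1, and 0 to 1 when one array was left out. One was lower, against 2 with normexp, with the robust intensity trend and with the authors' table, 0 with the brightest probe, with slide as a fixed block, on slide 1 alone and without both replicates 1, and 0 to 5 when one array was left out (5 without wild-type replicate 3, which leaves each group on a slide of its own). Differences that turned sign on slide 1 alone, and equally with slide as a fixed block, were Scn2a at base 888 (0.018), Scn3a at bases 1657 (0.33), 2983 (0.70), 6735 (0.018) and 8355 (0.14), Scn3b (0.23), Scn8a at base 10634 (-0.0020) and at base 3835 (0.079). Normexp turned Scn2b (0.053), Scn3a at base 9000 (-0.21) and Scn3b (0.024); quantile normalization Scn2b (0.070) and Scn3b (0.017); cyclic loess Scn2b (0.054), Scn3a at base 2983 (0.045) and Scn3b (0.022); scaling by the median of detected probes Scn3b (0.0035); array weights Scn3a at base 2983 (0.31) and Scn3b (0.083); the authors' table Scn2b (0.14) and Scn3b (0.041); leaving out both replicates 1 Scn2a at base 8614 (-0.0043) and Scn2b (0.014). Leaving out one array gave -0.42 to 0.39 for Scn3a at base 2983, -0.075 to 0.35 at base 9000, -0.21 to 0.053 at base 8355 and -0.26 to 0.024 at base 6735, -0.078 to 0.029 for Scn2b, -0.12 to 0.13 for Scn3b, -0.013 to 0.17 for Scn2a at base 8614 and -0.039 to 0.24 for Scn8a at base 10634. The causes were not tested. The median of all probes was -0.05, and -0.16 with no filter on dim probes. Deviations of same-numbered samples had correlations of 0.37, -0.04 and 0.22. Without the same value for differently numbered samples, these do not show whether the numbers pair samples. Dim probes, with signals near background, limit what the 3 dim Scn3a probes can show.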
